A study of Mus musculus with 10 samples.

Results

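Macrophages carry enzymes that cut the proteins around them, and 10 genes of these systems are described here in mouse bone marrow-derived macrophages with and without WASp, held flat or left free. The genes, and the lists below, were chosen by name with earlier results of these data known. Their shares of called genes therefore are not those of a set chosen blind. The genes are the metalloproteinases Mmp8, Mmp12, Mmp13, Mmp14 and Mmp19, and the disintegrin protease Adam8. The others are the plasminogen activator Plau with its receptor Plaur, and the inhibitors Timp1 and Timp2. These 10 are among the 57010 gene identifiers in the deposited table. All 10 reached the minimum for testing, a mean normalized read count of 10 or more, as did 12455 genes in all. Levels below are normalized read counts, which are reads divided by 1 depth factor per library. A change was called when the adjusted p of limma's moderated test over all 12455 genes was under 0.05, and fold changes are on the log2(normalized read count + 1) scale. On that scale the change of a low gene comes out too small.

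The study measured polyadenylated RNA by sequencing in 10 libraries of primary macrophages, each made from 5 ng of total RNA. Marrow from wild-type mice (WT) or from mice lacking WASp (WKO), the activator of branched actin assembly that the gene Was encodes, was grown for 7 days with M-CSF at 20 ng/mL. There were 2 unconfined WT libraries (numbered 1 and 3), 2 unconfined WKO libraries (1 and 3), 3 confined WT libraries (2, 3 and 6) and 3 confined WKO libraries (1, 2 and 5). Confined cells spent 1 h under silicone micropillars at a height of 3 µm. The labels give no age, sex, strain or allele of the mice, and they do not say how the unconfined cells were handled during that hour. They do not say whether libraries of a group came from different mice, so p-values measure the spread between these libraries, which may be technical.

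Matrix metalloproteinases are made as inactive precursors and degrade collagens, elastin and other matrix proteins once activated. Urokinase, the product of Plau, binds its receptor Plaur at the cell surface and turns plasminogen into plasmin, which digests fibrin and activates some metalloproteinases. TIMP proteins bind the active site of metalloproteinases and block it, and in macrophages this balance sets how tissue matrix is cleared and remodelled.

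Mmp13, Mmp12 and Mmp8 lie in the same orientation in 1 cluster on chromosome 9 (GRCm38, plus strand): chr9:7272514-7283331, chr9:7344381-7369499 and chr9:7558456-7568485. Mmp14 is at chr14:54431612-54445364, Plau at chr14:20836660-20843385 and Mmp19 at chr10:128790910-128800824, all on the plus strand. Adam8 is at chr7:139978932-139992562 on the minus strand and Plaur at chr7:24462484-24475968 on the plus strand. Timp2 is at chr11:118301069-118355740 on the minus strand, and Timp1 at chrX:20870166-20874735 on the plus strand, inside an intron of Syn1 on the opposite strand. Positions and exons are those of GENCODE M21. Exons of 3 of the 10 genes overlap those of a gene on the opposite strand, and whether reads were counted by strand is not given in the sources used here. Mmp19 shared 23.2% of its transcript sequence with Tmem198b, which had 193 to 313 normalized reads per library, so reads of that stretch could not be told apart if counting did not use strand, and the Mmp19 level is uncertain. Mmp19 also lies within Gm47093 on the opposite strand and overlaps its exons. The level of Gm47093 was not examined. Adam8 overlaps Gm16201, which had 70.0 to 146, and Mmp12 overlaps Mmp1b, which had 0 reads in every library.

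The stretches upstream of the start sites are shown for 4 genes because they carry, or lack, the sequence bound by AP-1, whose subunits rose on confinement (below). They are the 250 bases before the start in RefSeq (GRCm38.p6), 5′ to 3′ on the gene's strand, with the AP-1 sequence TGAGTCA or its reverse complement TGACTCA in capitals. RefSeq gave 9 such stretches for 8 of the 10 genes, with 2 starts for Mmp12, the second of which is printed.
Mmp12 (chr9:7347124-7347373, plus strand): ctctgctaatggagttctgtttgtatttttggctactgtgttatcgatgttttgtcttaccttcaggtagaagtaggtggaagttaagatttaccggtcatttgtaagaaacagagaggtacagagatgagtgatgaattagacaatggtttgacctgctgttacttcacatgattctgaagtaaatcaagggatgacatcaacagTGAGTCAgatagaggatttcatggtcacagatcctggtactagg
Mmp13 (chr9:7272264-7272513, plus strand): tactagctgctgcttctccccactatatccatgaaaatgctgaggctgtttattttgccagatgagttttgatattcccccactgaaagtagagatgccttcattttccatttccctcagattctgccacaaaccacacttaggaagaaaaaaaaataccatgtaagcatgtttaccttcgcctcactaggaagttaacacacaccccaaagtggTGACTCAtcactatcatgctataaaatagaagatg
Plaur (chr7:24462233-24462482, plus strand): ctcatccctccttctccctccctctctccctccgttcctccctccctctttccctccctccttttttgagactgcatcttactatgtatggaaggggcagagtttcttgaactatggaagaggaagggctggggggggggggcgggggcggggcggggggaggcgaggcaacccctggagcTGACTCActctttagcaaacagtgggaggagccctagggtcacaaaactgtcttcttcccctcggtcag
Mmp14 (chr14:54431348-54431597, plus strand): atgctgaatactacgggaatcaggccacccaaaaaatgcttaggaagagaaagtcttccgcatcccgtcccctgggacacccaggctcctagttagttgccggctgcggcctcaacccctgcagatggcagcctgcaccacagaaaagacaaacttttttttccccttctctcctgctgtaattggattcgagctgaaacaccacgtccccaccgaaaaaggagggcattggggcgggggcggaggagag

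The AP-1 sequence, searched on both strands, was in 3 of the 9 stretches, against 4.46% of all 32851 such stretches in the table. It began 44 bases before the second start of Mmp12, 35 before that of Mmp13 and 69 before that of Plaur. The letters TATAAA were in 1 of the 9, that of Mmp13, against 12.4% of all stretches. The letters GAGGAAG, a core bound by the myeloid factor PU.1, were in 3 of the 9, those of Mmp8, Plaur and the first start of Mmp12, against 10.6% of all. A match describes letters in this window and does not show that a factor bound there.

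Was, which encodes WASp, had 1308 to 1649 normalized reads in the 5 WT libraries and 96.9 to 154 in the 5 WKO libraries, so its transcript was lower in each library labelled WKO but still present. Recovered totals were 13295701 to 19329908 reads per library, at which 3 reads, taken as the floor of detection, are 2.35 to 3.59 normalized reads. This floor covers counting error only. All 10 macrophage markers had reads in every library, and their sum was 205779 to 229438 in WT and 263350 to 338575 in WKO. Markers of other cells were present too. The sum of 13 neutrophil and progenitor markers was 2771 to 11816 in WT and 7716 to 32881 in WKO, and 7 of the 13 were called higher in WKO averaged over both conditions, against 2.9% of all tested genes, or 0 to 12 when 1 library was left out. The sum of 16 stromal markers was 343 to 2405 in WT, where Lum was at 0, and 1395 to 14052 in WKO. The sum of 8 B lineage markers was 423 to 1065 in WT and 1834 to 6538 in WKO, without overlap. Of the 6 tested, 2 were called higher in WKO averaged over both conditions, the immunoglobulin genes Ighm (log2 difference 2.49, SE 0.27), called without any 1 library too, and Igkc (3.10, SE 0.66), lost in 4 of the 10 fits that left out a library. The part of B lineage RNA in the genotype differences below was not tested. Confined WKO library 5 stood apart: it held the highest level of 15 of the 16 stromal markers. Several of the differences that rest on it are given with and without it. In bulk RNA, fewer cells of a type and less RNA per cell cannot be told apart.

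Levels were compared between genes per kilobase of each gene's principal transcript. Mmp12, the macrophage elastase, was highest with a mean of 16205 normalized reads per kilobase over the 10 libraries (range 10445 to 23459). Adam8 followed at 10579.6 (7738 to 12560.1), Plau at 6312 (3364 to 9752), Timp2 at 2738 (2439 to 3333) and Plaur at 1171 (651 to 1587). Mmp13 had 487, Mmp8 419 and Mmp19 393 normalized reads per kilobase. Mmp14 with 112 and Timp1 with 104 were lowest. Timp2 stood apart from both neighbours in this order, since its range overlapped neither that of Plau nor that of Plaur. Mmp13 exceeded Mmp8 in 6 of 10 libraries, Mmp8 exceeded Mmp19 in 5 and Mmp14 exceeded Timp1 in 5, so those neighbours have no settled order. The other neighbours kept their order in all 10 libraries, although their ranges overlapped except at Timp2.

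**Figure D1:**
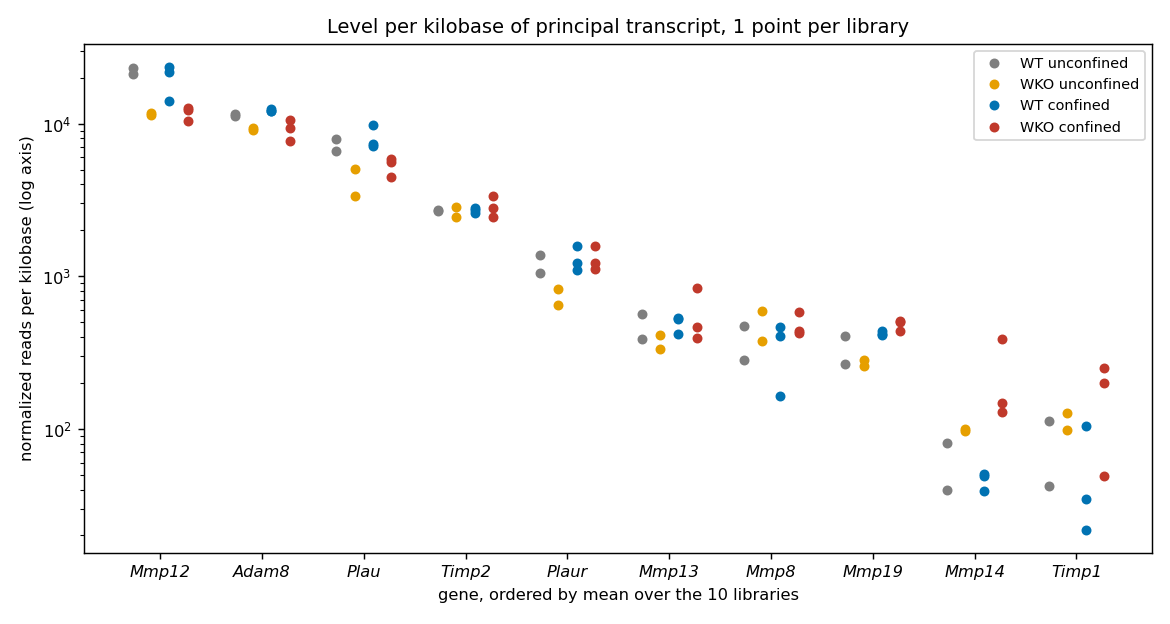
Normalized reads per kilobase of principal transcript (log axis) for the 10 genes, ordered by their mean over the libraries, with 1 point per library and 1 colour per group. Mmp12 lies between 10445 and 23459 and Timp1 between 21.8 and 251, and within Mmp12 all 5 WT points lie above all 5 WKO points.

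Mmp12 alone made up 46.9% to 48.6% of the summed level per kilobase of the 10 genes in 4 of the 5 WT libraries, and 33.6% in confined WT library 6. In the 5 WKO libraries its share was 33.3% to 40.6%. Mmp12, Adam8 and Plau were, in that order, the 3 highest per kilobase in all 10 libraries. The ratio of Timp2 to Mmp14 per kilobase, an inhibitor against the membrane protease it binds, was 33.4 to 69.6 in the WT libraries and 8.56 to 29.7 in the WKO libraries. The 2 ranges did not overlap. The 8.56 was in confined WKO library 5, and the other WKO libraries had 19.1 to 29.7. Over all libraries the Timp2 count varied by 1.37-fold and the Mmp14 count by 10.0-fold.

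Loss of WASp went with lower Mmp12, Plau and Adam8 and with higher Mmp14. Averaged over both conditions, 4 of the 10 genes were called, against 5.57% of all tested genes. Of the 10, 3 were lower and 1 higher, against 2.67% lower and 2.9% higher of all tested genes. Their groups did not overlap in either condition, a pattern that 12.0% of all tested genes showed. The median size of the genotype difference was 0.42 on the log2 scale for the 10 genes and 0.17 for all tested genes. Mmp8, Mmp13, Mmp19, Plaur, Timp1 and Timp2 were not called.

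**Figure D2:**
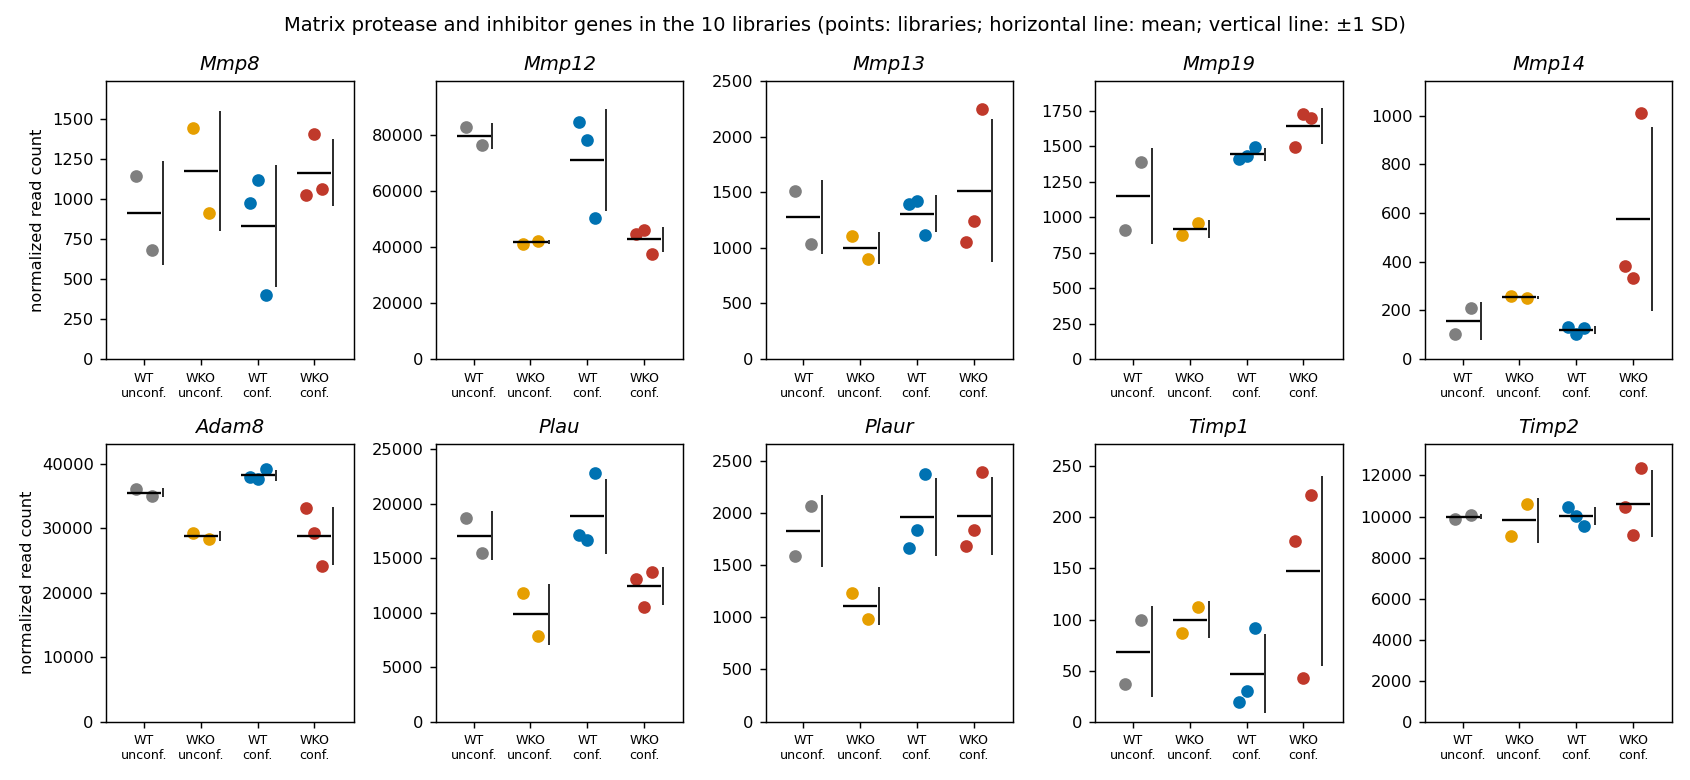
Normalized read counts of the 10 genes, 1 panel per gene, with 1 point per library, a horizontal line at the group mean and a vertical line of 1 SD on each side (n = 2 unconfined, n = 3 confined). The WT points of Mmp12, Adam8 and Plau lie above the WKO points in both conditions, and the highest point of Mmp14 is confined WKO library 5 at 1011.

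Among the secreted metalloproteinases, Mmp12 was lower in every WKO library. Its counts were 82955 and 76450.0 in unconfined WT and 41162 and 42276 in unconfined WKO. In confined cells they were 84616, 78421 and 50423 in WT (libraries 2, 3 and 6) and 44599, 45946 and 37676 in WKO (libraries 1, 2 and 5). The 5 WT values lay above the 5 WKO values, with library 6 of confined WT the nearest. Averaged over both conditions Mmp12 was 1.76-fold lower in WKO (log2 difference -0.82, SE 0.14, limma adjusted p = 0.00609), and the call held without any 1 library.

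Within each condition the Mmp12 difference did not pass the threshold by limma, but it did by other fits. It was -0.93 (SE 0.21) in unconfined cells, with a limma adjusted p of 0.117. Without confined WT library 6 or confined WKO library 5, which enter only through the shared spread, the limma adjusted p was 0.0374 or 0.0368. Over the fits that left out a library the unconfined difference was -0.99 to -0.87, and limma called it in no other. DESeq2 gave an adjusted p of 0.00209 there, and limma with only the groups compared 0.00527. In confined cells the Mmp12 difference was -0.71 (SE 0.17), with a limma adjusted p of 0.0553. Without confined WT library 6 it was -0.94, with a limma adjusted p of 0.00914. Over the fits that left out a library it was -0.94 to -0.56, and limma called it in no other. In confined cells edgeR gave an adjusted p of 0.0403 and DESeq2 0.000999.

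Mmp13, a collagenase, showed no genotype difference beyond its spread. Its counts were 1511 and 1039 in unconfined WT, 1104 and 896 in unconfined WKO, 1394, 1419 and 1114 in confined WT, and 1057, 1243 and 2247 in confined WKO. Library 5 of confined WKO was the highest of all 10, and the groups overlapped in both conditions. The averaged difference was -0.10 on the log2 scale (SE 0.19, limma adjusted p = 0.838), or -0.26 without that library (limma adjusted p = 0.257).

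Mmp8, the neutrophil collagenase, had counts of 1142 and 683 in unconfined WT, 1439 and 909.5 in unconfined WKO, 977, 1119 and 399 in confined WT, and 1024, 1403 and 1063 in confined WKO. The genotypes overlapped in both conditions, and library 6 of confined WT was lowest. The averaged difference was 0.49 (SE 0.27, limma adjusted p = 0.347). That same library had the lowest sum of neutrophil and progenitor markers, 2771, and unconfined WKO library 1 had the highest, 32881, together with the highest Mmp8. Confined WKO library 5 had a marker sum of 7716 and an Mmp8 count of 1063. The part of these markers in the Mmp8 values was not tested.

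Mmp19, a secreted metalloproteinase with basement membrane substrates, was not called by genotype (averaged difference -0.06, SE 0.11, limma adjusted p = 0.838). The difference was -0.30 (SE 0.18, limma adjusted p = 0.665) unconfined and 0.18 (SE 0.14, limma adjusted p = 0.581) confined. In confined cells its WKO values all lay above its WT values, which 10.7% of all tested genes showed too. Its values by library are given with confinement below.

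The membrane-anchored proteases went opposite ways. Mmp14, which cuts collagen at the cell surface and activates the precursor of Mmp2, had counts of 103 and 211 in unconfined WT and 258 and 249.8 in unconfined WKO. In confined cells it had 132, 101 and 128 in WT and 382, 333 and 1011 in WKO. All 5 WKO values lay above all 5 WT values, and library 5 was highest. Averaged over both conditions Mmp14 was 2.69-fold higher in WKO (log2 difference 1.43, SE 0.30, limma adjusted p = 0.0177). Without confined WKO library 5 it was 1.18, with a limma adjusted p of 0.00283. The averaged call was lost without unconfined WT library 1 (limma adjusted p = 0.0972), unconfined WKO library 1 (0.0745) or unconfined WKO library 3 (0.0833).

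In confined cells alone, Mmp14 was 4.20-fold higher in WKO (log2 difference 2.07, SE 0.37, limma adjusted p = 0.016). It was the 1 gene of the 10 called there, against 2.59% of all tested genes. Without confined WKO library 5 the difference was 1.57, with a limma adjusted p of 0.0073. The call was lost without confined WT library 2 (2.14, limma adjusted p = 0.0559) or library 3 (1.95, limma adjusted p = 0.0779), and with only the groups compared (limma adjusted p = 0.0519). In unconfined cells the difference was 0.78 (SE 0.46, limma adjusted p = 0.659).

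Stromal cells also make Mmp14, and their markers are given beside it. Of 15 tested stromal markers, 9 were called higher in confined WKO than in confined WT, against 1.38% of all tested genes, or 1 to 12 when 1 library was left out and 5 without confined WKO library 5. The marker sum was 4565, 1395 and 14052 in confined WKO libraries 1, 2 and 5, and 3419 and 4076 in unconfined WKO. It was 396, 343 and 1106 in confined WT libraries 2, 3 and 6, and 1185 and 2405 in unconfined WT. Both the marker sum and Mmp14 were highest in confined WKO library 5. Their orders were not the same throughout: confined WKO library 2 had a lower sum than unconfined WT library 3, 1395 against 2405. Its Mmp14 count was higher, 333 against 211. The part of stromal RNA in the Mmp14 values was not tested.

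**Figure D3:**
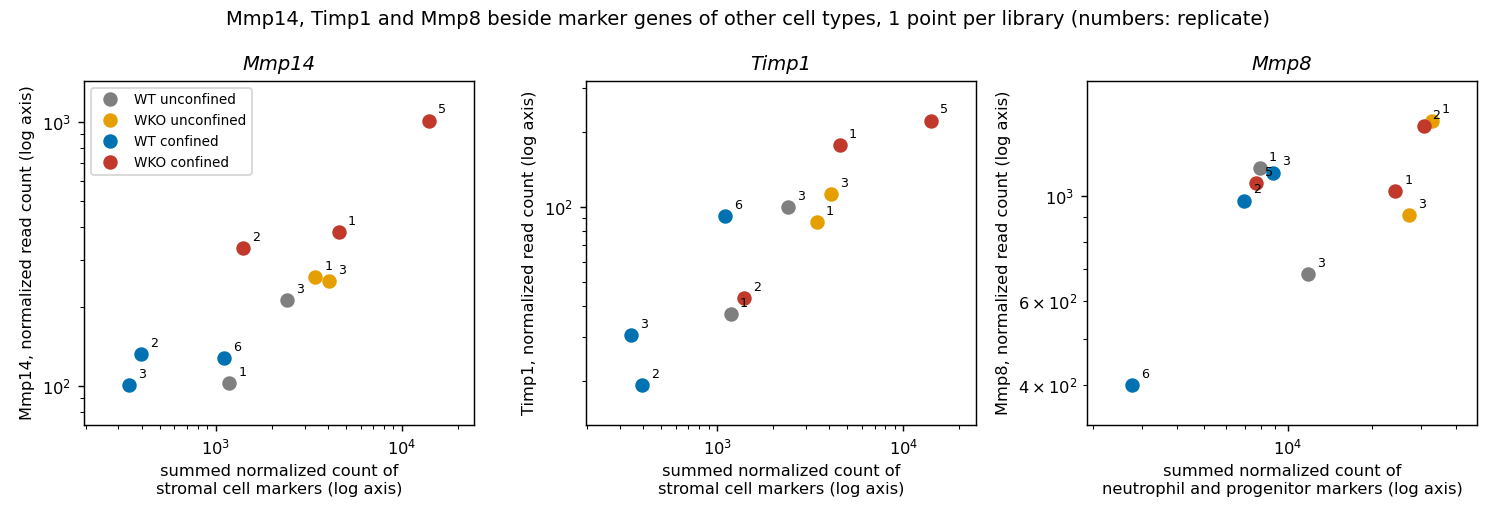
Normalized read counts of Mmp14 and Timp1 against the summed count of 16 stromal markers, and of Mmp8 against that of 13 neutrophil and progenitor markers, 1 numbered point per library, all axes logarithmic. Confined WKO library 5 is farthest right and highest for Mmp14 and Timp1, with a stromal sum of 14052.

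Adam8, a membrane protease of leukocytes that sheds adhesion molecules, had counts of 36029 and 34991 in unconfined WT and 29295 and 28297 in unconfined WKO. In confined cells it had 37867, 37617 and 39149.9 in WT and 33097, 29302 and 24121 in WKO. WT was above WKO in both conditions without overlap. Averaged over both, Adam8 was 1.28-fold lower in WKO (log2 difference -0.36, SE 0.09, limma adjusted p = 0.0428). This call was narrow: it was lost when any 1 of 8 libraries was left out, namely either unconfined WT library, either unconfined WKO library, any confined WT library or confined WKO library 2. The limma adjusted p then was 0.0647 to 0.191, and the difference itself -0.37 to -0.35. With no filter on low levels the limma adjusted p was 0.145. Gm16201 on the opposite strand had at most 146 normalized reads.

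Of the plasminogen activation pair, the protease Plau was lower in WKO. Plau counts were 18659 and 15472 in unconfined WT, 11849.7 and 7878 in unconfined WKO, 17141, 16657 and 22839 in confined WT, and 13076, 10488 and 13761 in confined WKO. The lowest WT value, 15472, was above the highest WKO value, 13761. Averaged over both conditions Plau was 1.63-fold lower in WKO (log2 difference -0.71, SE 0.14, limma adjusted p = 0.0136). The call was lost without unconfined WT library 1 (-0.64, limma adjusted p = 0.0793) or unconfined WKO library 3 (-0.56, limma adjusted p = 0.0854). Within conditions it was -0.81 (SE 0.21, limma adjusted p = 0.187) unconfined and -0.60 (SE 0.17, limma adjusted p = 0.0987) confined.

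Its receptor Plaur had counts of 1582 and 2066 in unconfined WT and 1236 and 979.7 in unconfined WKO. In confined cells it had 1664, 1835 and 2374 in WT and 1678, 1834 and 2390.4 in WKO. The genotypes did not overlap in unconfined cells, where 22.7% of all tested genes were lower in WKO without overlap. In confined cells the genotypes were nearly level. The difference was -0.72 (SE 0.21, limma adjusted p = 0.263) unconfined, 0.01 (SE 0.17, limma adjusted p = 0.99) confined and -0.35 (SE 0.14, limma adjusted p = 0.169) averaged.

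Of the inhibitors, Timp2 was the steadiest of the 10 genes. Its counts were 9899 and 10075 in unconfined WT, 9045 and 10589.9 in unconfined WKO, 10443, 10038 and 9559 in confined WT, and 10453, 9087 and 12362 in confined WKO. The groups overlapped throughout, and the averaged genotype difference was 0.02 (SE 0.09, limma adjusted p = 0.93).

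Timp1, an inducible inhibitor, was low and varied most between libraries. Its counts were 37.0 and 99.8 in unconfined WT, 86.8 and 113 in unconfined WKO, 19.3, 30.5 and 91.6 in confined WT, and 177, 43.2 and 222 in confined WKO. Values within confined WT differed as much as those between groups, and the genotypes overlapped in both conditions. The averaged difference was 1.16 (SE 0.52, limma adjusted p = 0.235), and the confined difference was 1.63 (SE 0.65, limma adjusted p = 0.233). Without confined WKO library 5 these were 0.94 and 1.19 (limma adjusted p = 0.29 and 0.423). The highest Timp1 value was in confined WKO library 5 and the lowest in confined WT library 2, which had stromal sums of 14052 and 396. The part of stromal RNA in the Timp1 values was not tested.

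In unconfined cells alone, limma called 0 of the 10 genes by genotype, against 0.145% of all tested genes. At an unadjusted p under 0.05 there were 3 of the 10 (Mmp12, Plau and Plaur), against 9.6% of all. DESeq2 on the recovered reads called 2, Mmp12 and Plau, and edgeR called 0. In confined cells limma called Mmp14, edgeR called Mmp12 too, and DESeq2 called Mmp12, Plau and Adam8 beside Mmp14.

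**Figure D4:**
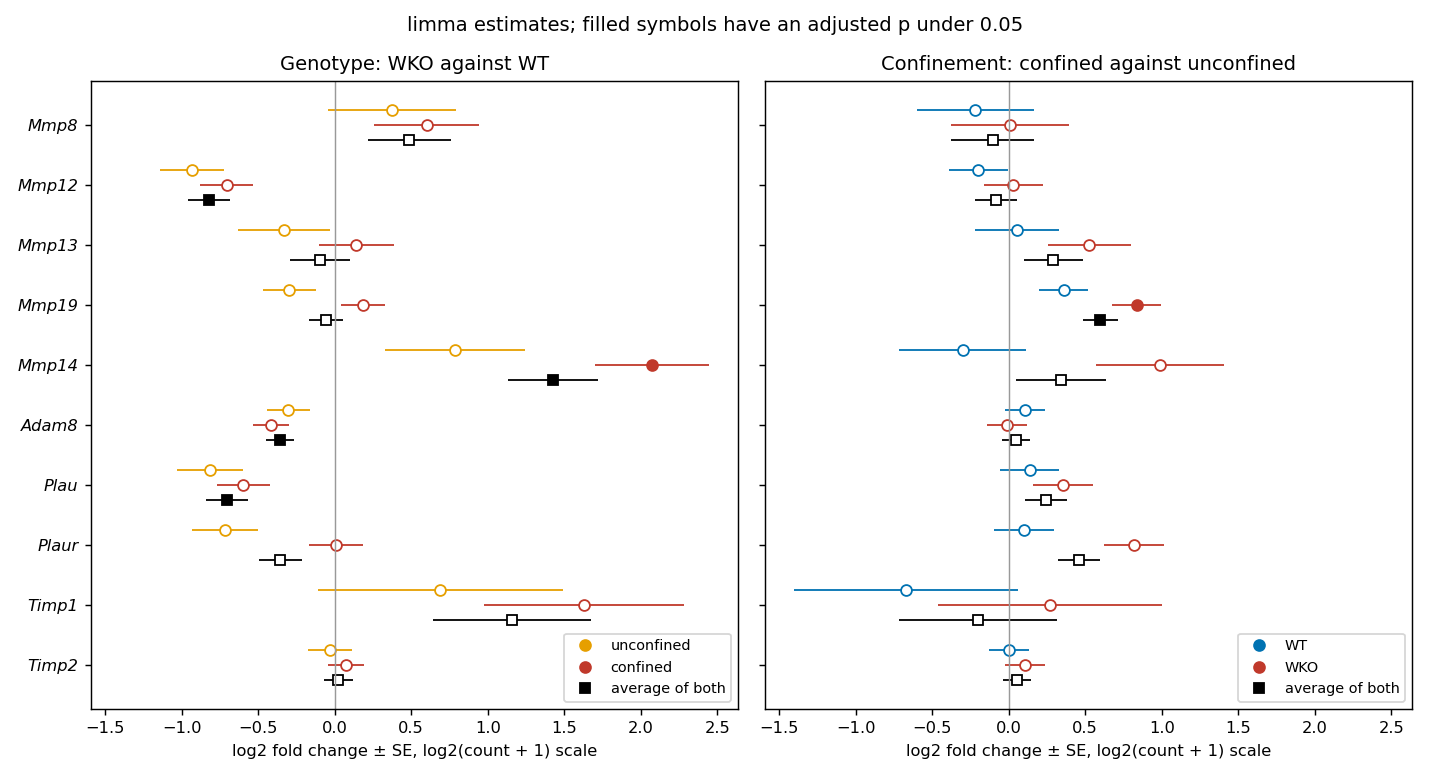
limma log2 fold changes with 1 SE on each side for the 10 genes, by genotype (left) and by confinement (right), within each group and averaged, with filled symbols for an adjusted p under 0.05. The filled genotype symbols are Mmp12, Adam8, Plau and Mmp14, and the filled confinement symbols are those of Mmp19.

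After 1 h of confinement limma called 1 of the 10 genes, Mmp19, and DESeq2 called Plaur as well. In WKO cells 1 of 10 was called, against 1.72% of all tested genes. In WT cells 0 of 10 were called, against 1.16%. Averaged over genotypes 1 of 10 was called, against 6.21%. At an unadjusted p under 0.05, limma gave 1 of the 10 in WT, Mmp19, against 12.2% of all tested genes. Neither edgeR nor DESeq2 called any of the 10 in WT. The most abundant proteases, Mmp12, Adam8 and Plau, had averaged confinement differences of -0.08 (SE 0.14), 0.05 (SE 0.09) and 0.25 (SE 0.14), none of them called.

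Mmp19 counts were 910.1 and 1388 in unconfined WT and 1408, 1429 and 1493 in confined WT. In WKO they were 873 and 960.1 in unconfined cells and 1497, 1726 and 1700.2 in confined cells. Every confined library lay above every unconfined library of both genotypes, with unconfined WT library 3 close to the confined WT values. Compared within each genotype, 7.37% of all tested genes were higher on confinement without overlap in both. In WKO Mmp19 was 1.79-fold higher on confinement (log2 difference 0.84, SE 0.16, limma adjusted p = 0.0238). In WT the difference was 0.36 (SE 0.16, limma adjusted p = 0.395). Averaged over genotypes it was 0.60 (SE 0.11, limma adjusted p = 0.00954).

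The averaged Mmp19 call was lost without unconfined WKO library 1 (0.56, limma adjusted p = 0.0647). The WKO call was lost without unconfined WKO library 1 (0.77, limma adjusted p = 0.26), unconfined WKO library 3 (0.91, 0.137), confined WKO library 2 (0.80, 0.0628) or confined WT library 3, which enters only through the shared spread (0.84, 0.0503), and with only the groups compared (limma adjusted p = 0.0748). Tmem198b, which shares exon sequence with Mmp19, had group means of 253 and 196 in unconfined WT and WKO and 239 and 231.5 in confined WT and WKO. In unconfined WT it had 193 in library 1 and 313 in library 3, and Mmp19 too was lower in library 1. The part of Tmem198b or Gm47093 reads in the Mmp19 values was not tested.

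Plaur came nearest to a call after Mmp19. In WKO its 3 confined values, 1678 to 2390.4, lay above the 2 unconfined values, 979.7 and 1236. Of all tested genes 14.5% showed this pattern in WKO. The difference was 0.82 (SE 0.20, limma adjusted p = 0.0638) and missed the threshold of limma, while DESeq2 called it (0.83, adjusted p = 0.00409). With 1 library left out it was 0.65 to 0.99, and limma called it only without confined WKO library 1 (0.93, adjusted p = 0.0205), the other adjusted p being 0.0562 to 0.498. Without confined WKO library 5 it was 0.67 (limma adjusted p = 0.101). In WT it was 0.10 (SE 0.20, limma adjusted p = 0.889), and averaged it was 0.46 (SE 0.14, limma adjusted p = 0.076, DESeq2 adjusted p = 0.0225). Mmp14 in WKO was also above its unconfined values in every confined library, the same pattern that 14.5% of all tested genes showed. Its difference was 0.99 (SE 0.42, limma adjusted p = 0.314), or 0.49 without library 5.

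Whether the response to confinement differed between genotypes was tested as an interaction. limma called 0 of the 10 genes, against 0% of all tested genes, so that no gene in the table passed. At an unadjusted p under 0.05 there was 1 of the 10, against 2.07% of all. That gene was Plaur, with a difference between genotypes of 0.72 (SE 0.28, limma adjusted p = 0.999). The estimate for Mmp14 was 1.29 (SE 0.59, limma adjusted p = 0.999) and that for Mmp19 0.48 (SE 0.23, limma adjusted p = 0.999). With 1 library left out the Mmp14 estimate was 0.77 to 1.81. An Mmp19 call in WKO and none in WT therefore does not show that the genotypes differed.

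Other genes of these systems were taken from lists. Of 18 other metalloproteinases 7 were tested, and averaged over conditions 1 was called lower and 1 higher in WKO, where 5.57% of all tested genes were called. Mmp9, the gelatinase of macrophages and neutrophils, had 2721 ± 1579 normalized reads in unconfined WT (SD, n = 2), 1310.3 ± 209 in unconfined WKO (SD, n = 2), 3548 ± 965 in confined WT (SD, n = 3) and 952 ± 408 in confined WKO (SD, n = 3). The WKO values lay below the WT values in both conditions, as did those of 6.0% of all tested genes. Averaged over conditions the Mmp9 log2 fold change was -1.45 (SE 0.29, limma adjusted p = 0.0162). That call was lost without unconfined WT library 1 (0.0881), unconfined WKO library 1 (0.0518) or unconfined WKO library 3 (0.0949). Mmp27 was higher in WKO by 0.63 (SE 0.12, limma adjusted p = 0.0143), and its call was lost without unconfined WT library 3, or either unconfined WKO library, with a limma adjusted p of at most 0.0833.

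Of 20 other ADAM and ADAMTS genes 13 were tested, and 3 were called in each averaged comparison, against 5.57% of all tested genes by genotype and 6.21% by confinement. By genotype, Adam12 (3.20) and Adam22 (0.99) were called higher in WKO and Adamts1 (-1.02) lower, on the log2 scale averaged over conditions. Adam12 was near the floor in WT, at 0.960 ± 1.36 unconfined (SD, n = 2) and 3.46 ± 2.60 confined (SD, n = 3), so its fitted fold depends on the pseudocount. By confinement averaged over genotypes, Adamts1 (0.87) and Adam17 (0.41), the shedding enzyme of TNF, were called higher and Adamts10 (-0.62) lower. Each of these calls was lost in at least 1 of the 10 fits that left out a library, Adam12 in 1, Adamts10 in 2, Adamts1 in 5 for either comparison, Adam22 in 6 and Adam17 in 7. With no filter on low levels the limma adjusted p was 0.0676 for Adam22 by genotype, 0.0639 for Adam17 by confinement and 0.0717 for Adamts1 by confinement.

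Of 12 other genes of plasminogen activation 9 were tested, and 2 were called by genotype averaged over conditions, against 5.57% of all. Anxa2, which docks plasminogen and its activator tPA at the cell surface, was lower in WKO (log2 difference -0.41, SE 0.08, limma adjusted p = 0.0141), at 13237 ± 617 and 10461 ± 752 in unconfined WT and WKO (SD, n = 2 each). Serpine2, a secreted inhibitor of thrombin and urokinase, was higher by 1.06 (SE 0.24, limma adjusted p = 0.0276). The Anxa2 call was lost in 3 of the 10 fits that left out a library and the Serpine2 call in 5, as well as with no filter on low levels (limma adjusted p = 0.0575). Of 5 other inhibitors of metalloproteinases 2 were tested and 0 called by limma in any comparison.

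Of 12 genes of cathepsins, the proteases of lysosomes, and their cystatin inhibitors 11 were tested and 2 were called by averaged genotype, against 5.57% of all tested genes. Ctsk, a collagen-cutting cathepsin of osteoclasts and macrophages, was lower in WKO (log2 difference -0.86, SE 0.14, limma adjusted p = 0.00525), at 308 and 342 against 167 and 214 normalized reads in unconfined cells, and 346, 282 and 282 against 176, 166 and 131 in confined cells. Ctsh was higher by 0.67 (SE 0.11, limma adjusted p = 0.00609). The averaged calls of both held without any 1 library. Ctsk is also among 8 osteoclast markers, of which 6 were tested. Averaged over conditions 2 were called lower in WKO, Ctsk and the fusion receptor gene Dcstamp, against 2.67% of all tested genes. Dcstamp fell by 1.90 (SE 0.19, limma adjusted p = 0.000439), and its call held without any 1 library. The sum of the 8 was 12570 to 15009 in WT and 12562 to 15009 in WKO, with Calcr at 0. Most of that sum was Atp6v0d2, with group means of 11156 to 12241, so it hardly reflects Ctsk or Dcstamp. Averaged over conditions, 4 of the 6 tested were lower in WKO and 2 higher, called or not. The part of osteoclast RNA in the Ctsk values was not tested. Of 13 partners in activation and docking 11 were tested. By averaged genotype 1 was called, against 5.57% of all tested genes, and by averaged confinement 2, against 6.21%. Itgb3 was lower in WKO (-0.49), and Furin (0.67), which removes the precursor part of Mmp14, and Cd44 (0.73), a docking receptor of metalloproteinases, were higher on confinement averaged over genotypes. Their calls were lost in 7, 6 and 8 of the 10 fits that left out a library. Furin and Cd44 were both highest in confined WKO library 5, at 4807 and 22283 normalized reads. With no filter the limma adjusted p was 0.0512 for Itgb3 and 0.0608 for Cd44. In confined cells alone the Itgb3 difference was -0.81 (SE 0.15, limma adjusted p = 0.016), where 2.59% of all tested genes were called. That call was lost in 2 of the 10 fits that left out a library, and with only the groups compared (limma adjusted p = 0.0579).

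**Figure D5:**
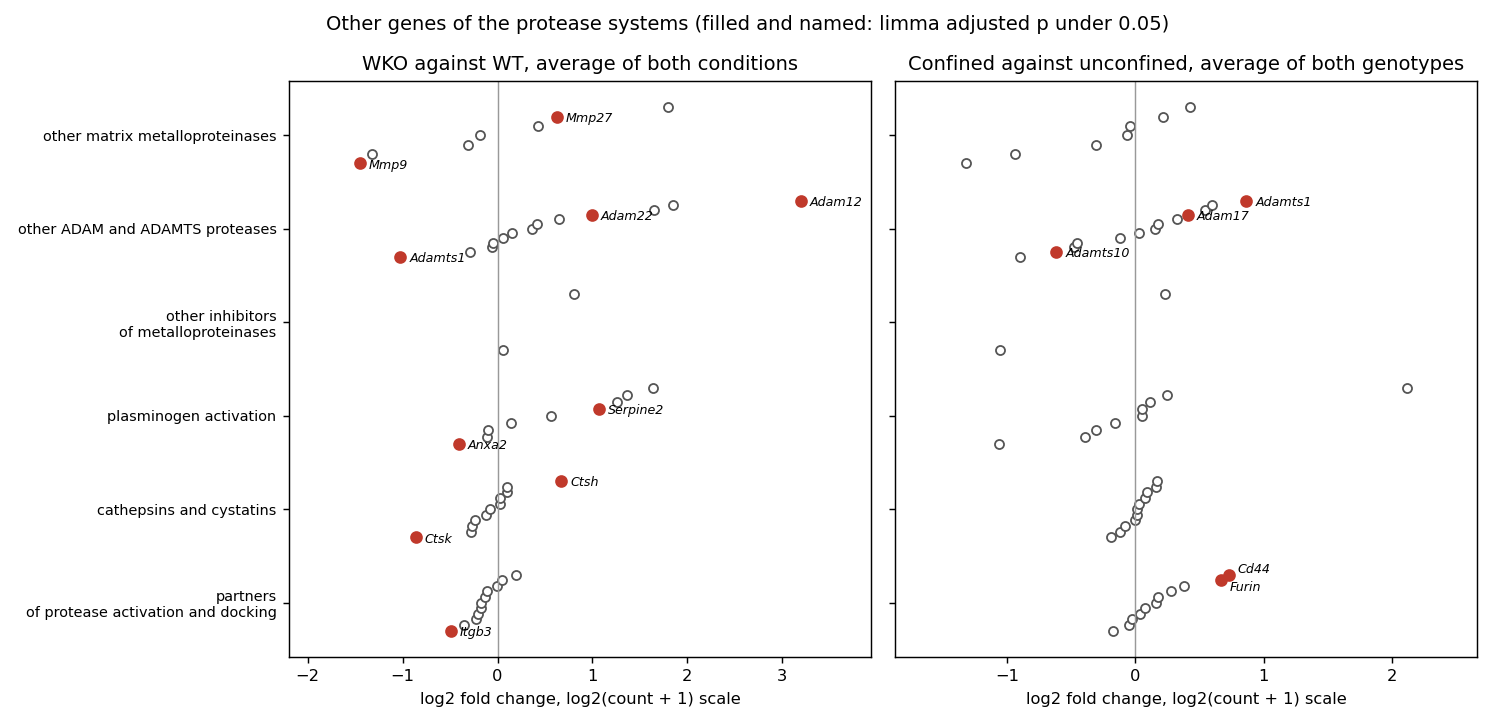
limma log2 fold changes of the tested genes of 6 related lists, averaged over conditions for genotype (left) and over genotypes for confinement (right), with genes past an adjusted p of 0.05 filled and named. Mmp9 at -1.45 and Ctsk at -0.86 are among the named genes on the genotype side, and no cathepsin or cystatin gene is filled on the confinement side.

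AP-1 subunits, transcription factors known to act on protease promoters, rose on confinement. Of the 9 tested, 7 were called higher averaged over genotypes, 4 in WT and 6 in WKO, and none lower. Of all tested genes 4.13%, 0.891% and 1.49% were called higher there. When 1 library was left out these counts were 5 to 7, 2 to 4 and 3 to 6. With only the groups compared 4 of the 6 WKO calls were lost, Fos, Jun, Junb and Jund (limma adjusted p = 0.0678 to 0.171). The WT call of Fos was lost with no filter (limma adjusted p = 0.0937) and with edgeR (0.0663), and the averaged call of Fosl1 with no filter (0.0598). Fosb had 59.0 ± 50.9 normalized reads in unconfined WT (SD, n = 2), 1779 ± 232 in confined WT (SD, n = 3), 134 ± 16.4 in unconfined WKO (SD, n = 2) and 5575 ± 2682 in confined WKO (SD, n = 3). Fosl2 rose by 1.89 (SE 0.13) and Junb by 2.29 (SE 0.21), each averaged over genotypes. Of the 3 genes with an AP-1 sequence upstream, Plaur, Mmp13 and Mmp12 had averaged confinement differences of 0.46 (SE 0.14), 0.29 (SE 0.19) and -0.08 (SE 0.14), and none was called. RefSeq gave no upstream stretch for Mmp19.

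The genes most like each of the 10 were found by Pearson's r of log2 levels over the 10 libraries, among 9207 tested genes with a symbol and a mean of at least 100. Points share genotype, condition and library composition, so these are descriptions. Mmp12 was most like Mamdc2 (r = 0.982) and Itgax (0.969), the integrin CD11c. Adam8 was most like Atp6v1h (r = 0.991), a subunit of the proton pump of lysosomes, Eif5a (0.975) and Ubash3b (0.970). Plau was most like C77080 (r = 0.975), Hsph1 (0.948) and Dhrs9 (0.946). Mmp14 was most like Ctsc, Lgmn and Il4ra (r = 0.973 each), the first 2 of them lysosomal proteases. Timp1 was most like Col5a2 (r = 0.953), Ppp2r5d (0.936) and Col4a2 (0.931), and 2 of these 3 are collagen genes. Mmp19 was most like Smad6 (r = 0.973), Id2 (0.953) and Senp2 (0.937). Plaur was most like Ppp3r1 (r = 0.970), a calcineurin subunit, Kcmf1 (0.947) and Zdhhc18 (0.945). Mmp13 was most like Il7r (r = 0.943), Snx4 (0.943) and Herpud2 (0.925). Mmp8 was most like Ptgs1 (r = 0.921), Syne2 (0.902) and Crim1 (0.883). The most like Timp2 were Eef1a1 (r = 0.918), Rsu1 (0.898) and Sirt2 (0.877).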

How the data were processed

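RNA of 10 libraries of bone marrow-derived macrophages was sequenced. Groups came from the genotype and treatment labels, and library numbers from the titles. No library was left out. The table that the authors deposited holds normalized read counts (unit: signal). Per the submitters' processing notes the tools were FastQC, Trim Galore and STAR with the build GRCm38 (mm10). The counting tool, the annotation release and the use of strand are not given in the sources used here. Dividing by the smallest step of each library gave whole reads for 100% of its nonzero values (tolerance 0.0001). The divisors equalled DESeq2's size factors. Such scaling removes differences in depth, not in composition.

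Genes with a mean normalized count of at least 10 were tested on log2(count + 1) with limma 3.58.1 in R 4.3.3 (mean-variance trend, 1 mean per group, all 10 libraries). Benjamini-Hochberg adjustment covered all tested genes. All 10 genes are named. From each related list up to 4 called genes per comparison with the smallest p are named, and for each of the 10 genes the 3 most alike, of which 1 is not reported here. Named outside that rule are Tmem198b, Gm47093, Gm16201 and Mmp1b (for their overlap) and the markers Ighm, Igkc, Dcstamp, Atp6v0d2, Lum and Calcr. So are AP-1 subunits whose call an alternative ended. All of these but Gm47093 were chosen after their values were seen. The genes and lists were chosen with earlier results of these data known. Shared transcript sequence was sought with blastn 2.17.0. The model was tested on simulated data.

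Alternatives were a pseudocount of 5, no filter, TMM scaling, edgeR 4.0.16 and DESeq2 1.42.0 on the recovered reads, only the groups compared, a replicate block, and each library left out. Chi-square per degree of freedom between libraries of 1 group was 7.56 to 78.3, so none was a repeat deposit of another.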

Additional observations from a re-analysis of the deposited data

How the results depend on the processing

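Of 1160 member values recomputed under alternatives, 1039 kept direction and side of the threshold, 24 lost and 22 gained a call, and 75 changed sign, none of these past the threshold in either fit. Counts of called genes follow in the order unconfined genotype, confined genotype, confinement in WT, confinement in WKO, averaged genotype and averaged confinement. With limma as described they were 18, 322, 144, 214, 694 and 773. DESeq2 gave 181, 775, 332, 484, 1147 and 1219. With only the groups compared the first 4 were 189, 90, 455 and 33. No filter gave 10 for unconfined genotype, 186 for confined genotype and 438 for averaged genotype. The replicate block gave 245 for unconfined genotype and 383 for averaged confinement. With 1 library left out the 6 counts ranged over 4 to 141, 58 to 701, 22 to 397, 43 to 1043, 169 to 1115 and 288 to 1807, where a group left with 1 library is assumed to vary like the others. The cause of these shifts was not tested.

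Of the 10 genes, by unconfined genotype 0 were called by limma, 2 by DESeq2, 1 with only the groups compared and 3 with the replicate block. By confined genotype the counts were 1, then 2 by edgeR, 4 by DESeq2, 0 with only the groups compared and 4 with the block. By confinement in WKO they were 1, then 2 by DESeq2 and 0 with only the groups compared. By averaged confinement they were 1, then 2 by DESeq2. With 1 library left out they ranged over 0 to 1 for unconfined genotype, 0 to 2 for confined genotype, 0 to 2 for confinement in WKO, 1 to 4 for averaged genotype and 0 to 2 for averaged confinement.

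Deviations of same-numbered libraries correlated at -0.11 to 0.076 in 7 pairs. In the unconfined groups, with 2 libraries each, the 2 deviations mirror each other, and most group means rest on differing numbers. This check therefore cannot exclude that the numbers pair the libraries. The replicate block gave the averaged Timp1 genotype difference as 1.36 (limma adjusted p = 0.0248). With it the averaged Adam8 genotype difference was -0.31 and not called (limma adjusted p = 0.0758), so the 4 called there include Timp1 in place of Adam8. Of related genes called on average, the block left Itgb3 by genotype (limma adjusted p = 0.0532) and, by confinement, Adam17 (0.26, 0.372), Adamts1 (0.77, 0.113), Adamts10 (-0.56, 0.128), Cd44 (0.42, 0.116) and Fosl1 (1.51, 0.103) uncalled. The block also left Itgb3 uncalled by confined genotype (limma adjusted p = 0.0656). It changed the sign of these uncalled log2 values: confined genotype for Mmp8 (-0.018), Mmp13 (-0.44) and Timp2 (-0.047); confinement in WT for Mmp8 (0.29), Mmp12 (0.0058) and Plaur (-0.064); confinement in WKO for Mmp8 (-0.11) and Adam8 (0.14). It also did so for the interaction of Mmp8 (-0.39), Mmp13 (-0.10) and Timp2 (-0.017), averaged genotype of Mmp19 (0.028) and Timp2 (-0.038), and averaged confinement of Mmp8 (0.090) and Mmp12 (0.037). Confined genotype of Plaur was -0.0035 under TMM and -0.0054 with edgeR. Confinement in WKO was -0.023 with edgeR and -0.015 with DESeq2 for Mmp8, and 0.0012 with DESeq2 for Adam8. Averaged confinement of Timp1 was 0.027 with edgeR and 0.015 with DESeq2.

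With 1 library left out, the sign of these uncalled log2 values changed, over the ranges given. Unconfined genotype gave Mmp19 -0.60 to 0.0087, Timp1 -0.014 to 1.39 and Timp2 -0.14 to 0.085. Confined genotype gave Mmp13 -0.18 to 0.36, Plaur -0.14 to 0.15 and Timp2 -0.038 to 0.18. Confinement in WT gave Mmp8 -0.59 to 0.24, Mmp12 -0.34 to 0.033, Mmp13 -0.22 to 0.32, Mmp14 -0.82 to 0.22, Plau -0.0080 to 0.27, Plaur -0.094 to 0.29, Timp1 -1.37 to 0.034 and Timp2 -0.028 to 0.036. Confinement in WKO gave Mmp8 -0.32 to 0.34, Mmp12 -0.025 to 0.12, Adam8 -0.12 to 0.11, Timp1 -0.17 to 1.00 and Timp2 -0.0061 to 0.22. The interaction gave Mmp8 -0.23 to 0.60, Mmp12 -0.0030 to 0.37, Adam8 -0.22 to 0.0075, Plau -0.076 to 0.51 and Timp2 -0.0091 to 0.22. Averaged genotype gave Mmp13 -0.26 to 0.038, Mmp19 -0.21 to 0.096 and Timp2 -0.034 to 0.080. Averaged confinement gave Mmp8 -0.29 to 0.13, Mmp12 -0.16 to 0.031, Adam8 -0.0047 to 0.11, Timp1 -0.55 to 0.16 and Timp2 -0.0016 to 0.11.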
